A study of Mus musculus with 5 samples.

Results

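The 49 genes described here are cell cycle and mitosis genes, measured by RNA-seq in mouse kidneys after ischemic injury. They were found by matching their symbols to the gene names of the deposited count files, which list 35478 genes, and were kept in 2 sets by the phase in which their products act. The G1/S set holds 24 genes, from the D-type cyclins to the enzymes that make deoxynucleotides. The G2/M set holds 25 genes, from the A- and B-type cyclins to the motors of the mitotic spindle. Each of the 49 was listed in every library and passed the filter on low counts, with 16394 genes passing in all.

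A cell divides when cyclins bind and switch on cyclin-dependent kinases (CDKs). D-type cyclins with Cdk4 or Cdk6 start the passage out of G1, E-type cyclins with Cdk2 open S phase, and Cdk1 with A- and B-type cyclins drives mitosis, while inhibitors such as the products of Cdkn1a, Cdkn1b and Cdkn1c hold these kinases back. In a healthy kidney few tubular cells divide. After ischemia, surviving tubular cells re-enter the cycle to replace lost ones, and infiltrating leukocytes and interstitial fibroblasts also divide, so a whole-tissue library holds cell cycle RNA of several cell types.

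Left kidneys had been subjected to unilateral ischemia-reperfusion injury (UIRI), with the renal pedicle clamped for 35 minutes while the mouse lay at 38.5°C. The right kidney was taken out on day 10, and the injured kidney was collected 24 hours later, on day 11. The 5 libraries came from 5 male mice that were 7 to 8 weeks old. Their strain is labelled C57BL/6J;129, while the sample titles name C57BL/6J alone, and they were all homozygous for the floxed Prdm16 allele. The 2 control mice, numbered 1 and 3, carried no Cre and are called Prdm16fl/fl. The 3 knockout mice, numbered 1, 2 and 3, are called Ksp-Cre/Prdm16fl/fl and carried Cre under the kidney-specific cadherin promoter, which is active in tubular epithelium, so that other kidney cells keep Prdm16. Where a mouse is given below by its number alone, it is a Ksp-Cre/Prdm16fl/fl mouse. The methods give the tissue as kidney cortex. The libraries held 14939040 to 16425161 counts, and a member held between 20 counts (Cdc6 in Ksp-Cre/Prdm16fl/fl mouse 3) and 2449 counts (Cdk4 in Ksp-Cre/Prdm16fl/fl mouse 1).

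Prdm16 itself measured 25.3 and 20.02 CPM (counts scaled by TMM to 1000000 per library) in the controls and 17.1, 17.0 and 18.0 CPM in the knockout mice. The groups did not overlap, but the log2 difference of -0.38 did not pass edgeR's quasi-likelihood test (adjusted p = 0.259), and the count covers the whole gene whereas the loxP sites flank exon 9. One library stood apart from its group. Across the genes tested, log2 CPM of Ksp-Cre/Prdm16fl/fl mouse 3 correlated with those of mice 1 and 2 of its genotype at r = 0.957 and 0.960, whereas mice 1 and 2 correlated with each other at 0.991 and the Prdm16fl/fl mice at 0.989. Values are therefore given by mouse for the members described most closely, and the main counts are also given without that library.

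None of the 49 members passed the test between the genotypes, and yet most of them leaned the same way. The log2 difference, Ksp-Cre/Prdm16fl/fl over Prdm16fl/fl, was above 0 for 46 of the 49 members, compared with 54.0% of all genes tested. By phase it was above 0 for 21 of 24 G1/S members, with a median of 0.22, and for 25 of 25 G2/M members, with a median of 0.33, whereas the median of all genes tested was 0.04. The exceptions were Cdkn1c, Ccnd3 and Tyms, which all belong to the G1/S set. In a bulk tissue library, a different number of dividing cells and a different amount of these RNAs per cell cannot be told apart.

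The lean was carried mainly by 2 of the 3 knockout mice. In Ksp-Cre/Prdm16fl/fl mouse 1 the G1/S members lay at a median of 0.45 above the Prdm16fl/fl mean on the log2 scale, and the G2/M members at 0.66. In mouse 2 both medians were 0.28. In mouse 3 they were -0.44 for G1/S and 0.00 for G2/M. Mouse 1 had the highest level of all 5 libraries for 40 of the 49 members, against 16.8% of all genes, and mouse 3 had the lowest level for 28 of them, against 32.0% of all genes. The lowest values of mouse 3 were mostly in the G1/S set, with 17 of 24 members, and less so in the G2/M set, with 11 of 25; this difference between the sets was not tested.

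**Figure D1:**
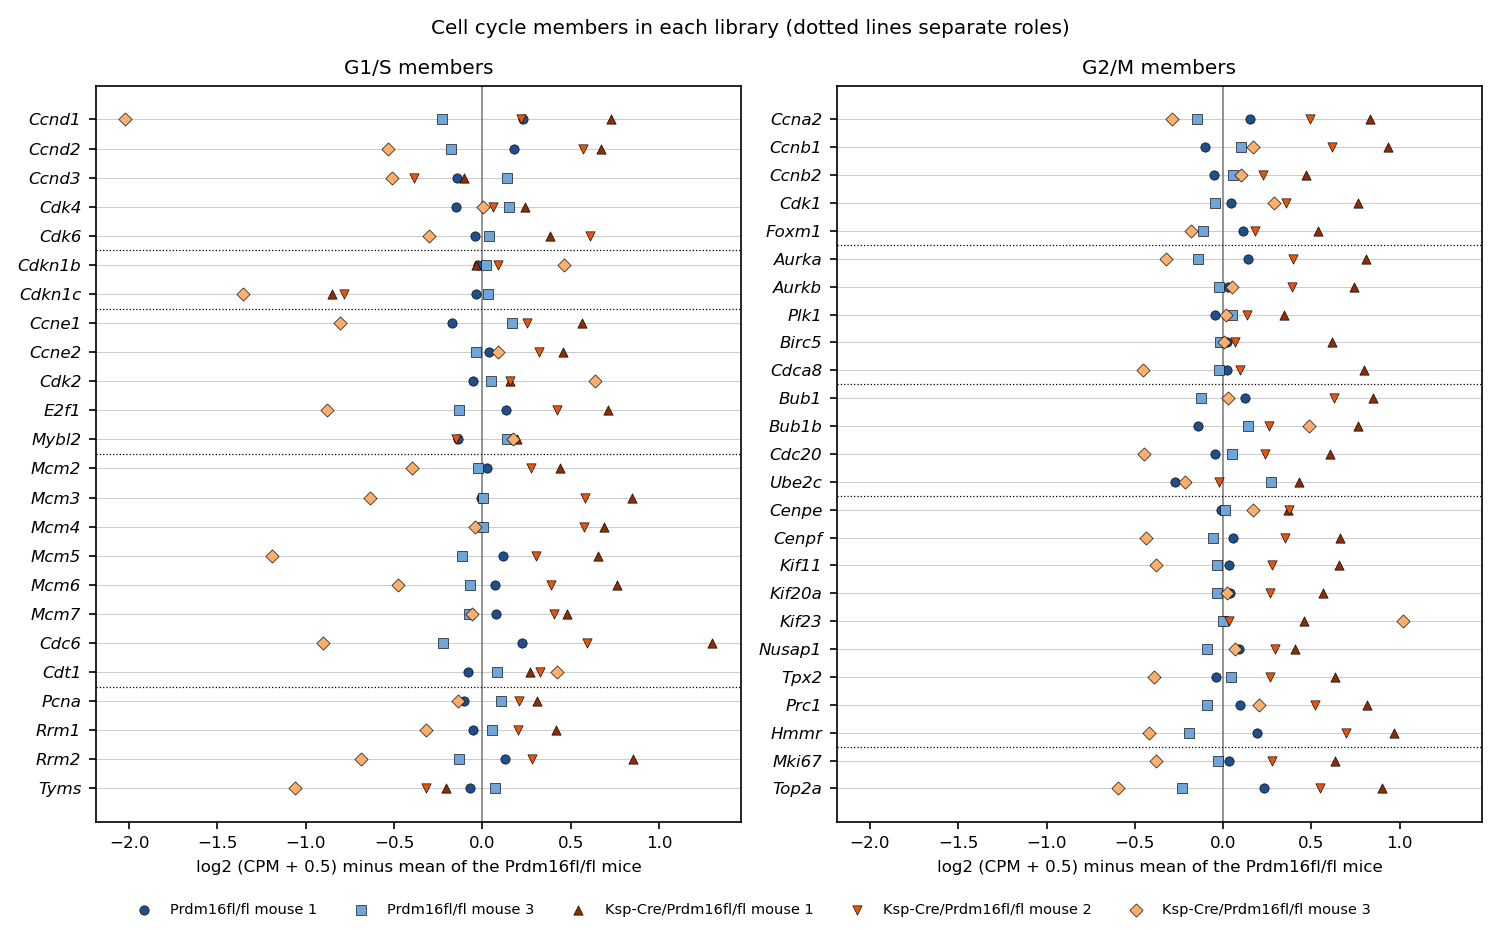
Each symbol is the level of 1 member in 1 library, as log2 (CPM + 0.5) minus the mean of the 2 Prdm16fl/fl mice (x axis, log2 units), with G1/S members on the left, G2/M members on the right and dotted lines between roles. Ksp-Cre/Prdm16fl/fl mouse 1 (dark triangles) lies farthest to the right for 40 of 49 members, and mouse 3 (pale diamonds) lies to the left of the other libraries for 28 of them.

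TPM values, in which counts are corrected for gene length and scaled to 1000000 per library, allow members to be added up. The 24 G1/S members summed to 813 and 791 TPM in control mice 1 and 3 and to 1201, 1061 and 759.9 TPM in knockout mice 1, 2 and 3. The 25 G2/M members summed to 192 and 174 TPM in the controls and to 357, 275 and 195 TPM in the knockout mice. For G1/S the genotypes overlapped, because mouse 3 fell under both controls. For G2/M all 3 knockout mice lay above both controls, but mouse 3 did so by only a few TPM. On the CPM scale the G2/M members summed to 282 and 266 in the controls and to 443, 345.5 and 264 in the knockout mice, so there mouse 3 lay below both controls. As means, the G1/S sums were 802 ± 15.2 TPM (SD, n = 2) and 1007 ± 226 TPM (SD, n = 3), and the G2/M sums were 183 ± 12.8 and 276 ± 81.0 TPM. G2/M RNA amounted to 23.7% and 22.04% of G1/S RNA in the controls and to 29.7%, 25.9% and 25.7% in the knockout mice. This ratio was thus higher in all 3 knockout mice than in either control. It rests largely on a few abundant transcripts, since Cdk4 and Pcna held 171 and 147 of the 813 TPM of G1/S in control mouse 1. The G1/S sum also includes 2 CDK inhibitors, at 120 and 113 TPM in the controls and 114, 122 and 122 TPM in the knockout mice.

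**Figure D2:**
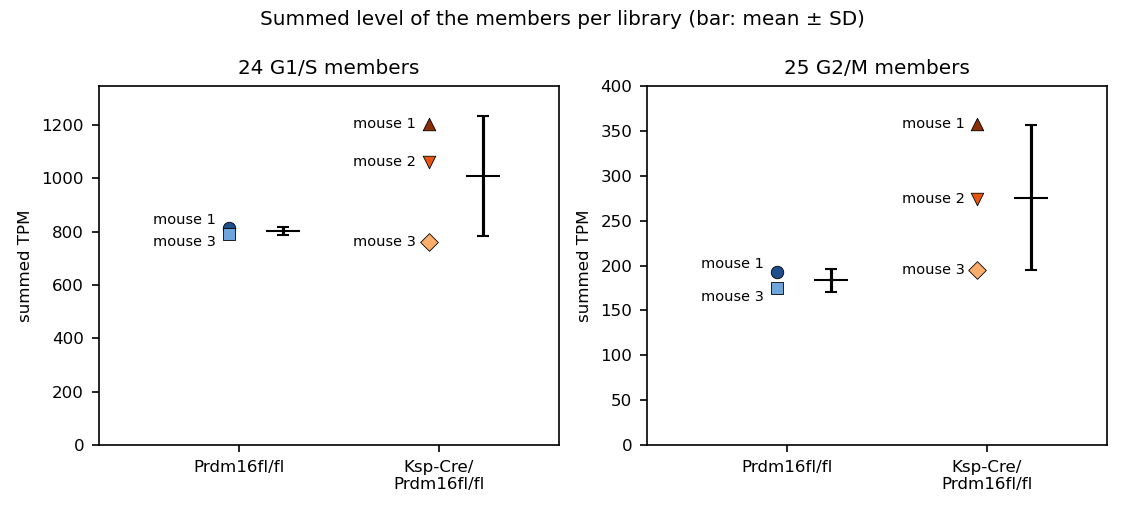
Summed TPM (y axis, from 0) of the 24 G1/S members (left) and the 25 G2/M members (right) in each library, with 1 symbol per mouse and a bar for the mean ± SD of each genotype (n = 2 and n = 3). Mouse 1 of the Ksp-Cre/Prdm16fl/fl group is highest in both panels (1201 and 357 TPM), and mouse 3 lies at the level of the controls (759.9 and 195 TPM).

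In edgeR's quasi-likelihood test, 0 of the 49 members were called, which required a log2 difference of at least 1 in size together with a p under 0.05 after Benjamini-Hochberg adjustment, a rule that called 0.708% of all genes tested. No member had an adjusted p under 0.05 either, which 0.976% of all genes reached. At an unadjusted p under 0.05, edgeR gave 2 members that were higher in the knockout kidneys, Cdk1 and Prc1, against 7.64% of all genes, and 1 that was lower, Cdkn1c, against 11.2%. DESeq2 also called 0 members, against 3.20% of all genes, and Cdkn1c alone had an adjusted p under 0.05 there, against 7.54%. All 3 knockout mice lay above both controls for 11 members, against 20.3% of all genes, and below both for 2 members, against 21.3%. The 11 were Ccne2, Cdk2 and Cdt1 of the G1/S set and Ccnb1, Ccnb2, Cdk1, Aurkb, Bub1b, Cenpe, Kif23 and Prc1 of the G2/M set, and the 2 below were Cdkn1c and Tyms.

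Among the D-type cyclins and their kinases, which receive growth signals in G1, Ccnd1 varied most between mice. Its transcript measured 95.6 and 69.2 CPM in control mice 1 and 3 and 135, 94.7 and 19.7 CPM in knockout mice 1, 2 and 3. Thus mouse 1 lay at 1.64 times the control mean and mouse 3 at 0.238 times, and the group means of 82.4 ± 18.6 CPM (SD, n = 2) and 83.2 ± 58.6 CPM (SD, n = 3) were alike while the mice were not. The fitted log2 difference was 0.01 ± 0.70 (SE; edgeR, adjusted p = 0.993). In the files, 21.7% of the exon bases of Ccnd1 are shared with LTO1 on the opposite strand. Whether reads were counted by strand is not given, so the Ccnd1 counts may include reads of LTO1. The overlap does not show how many.

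Ccnd2 was likewise highest in mouse 1 and lowest in mouse 3, with 17.2 and 13.3 CPM in the controls and 24.5, 22.7 and 10.3 CPM in the knockout mice (log2 difference 0.33, edgeR adjusted p = 0.678). Ccnd3 went the other way, with 74.5 and 90.8 CPM in the controls and 76.4, 62.8 and 57.5 CPM in the knockout mice (-0.33, edgeR adjusted p = 0.337). Here mice 2 and 3 lay below both controls and mouse 1 between them. The kinase genes Cdk4 and Cdk6, whose products pair with the D-type cyclins, had log2 differences of 0.10 and 0.28. Per length, Cdk4 was the most abundant of the 49 transcripts in each library, at 171 and 191 TPM in the controls and 263, 230.5 and 198 TPM in the knockout mice.

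The CDK inhibitor Cdkn1c (p57, a brake on G1 CDKs that podocytes are known to express) had the lowest p of all members. It measured 44.4 and 46.6 CPM in the controls and 24.98, 26.2 and 17.5 CPM in the knockout mice. All 3 knockout mice lay below both controls, at 0.549, 0.577 and 0.384 times the control mean, and the log2 difference was -0.99 ± 0.19 (SE). The unadjusted p was 0.00202, and the adjusted p of 0.0721 in edgeR's quasi-likelihood test did not pass. DESeq2 gave Cdkn1c an adjusted p of 0.0017, edgeR with no filter on low counts 0.0416 and edgeR without Ksp-Cre/Prdm16fl/fl mouse 3 0.00181, while the other alternatives gave 0.0698 to 0.54. Nphs1, which encodes nephrin and marks podocytes, was lower in the same mice, with 53.9 and 50.01 CPM in the controls and 28.3, 29.5 and 28.7 CPM in the knockout mice, and fell by 0.85 on the log2 scale with an adjusted p of 0.0412 (edgeR). All 4 podocyte markers were lower, and Nphs1 was the 1 of them with an adjusted p under 0.05 (edgeR), against 0.976% of all genes. They summed to 579 and 448 CPM in the controls and 300, 305 and 331 CPM in the knockout mice. Among the knockout mice this sum was highest in mouse 3, where Cdkn1c was lowest. The part of podocyte RNA in the Cdkn1c difference was not tested.

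Cdkn1b (p27, an inhibitor of Cdk2) was not lower. Its levels were 72.4 and 74.8 CPM in the controls and 71.8, 78.1 and 102 CPM in the knockout mice, with only mouse 3 standing off (log2 difference 0.19, edgeR adjusted p = 0.591). Cdkn1a (p21, the inhibitor induced by p53) is not one of the 49 members but was the gene with the largest log2 difference among 29 other cell cycle regulators that could be tested. It measured 17.4 and 17.7 CPM in the controls and 30.3, 32.1 and 173 CPM in the knockout mice. All 3 lay above both controls, and mouse 3 had by far the most. Whether Cdkn1a bears on the levels of the members was not tested. The log2 difference was 2.16 ± 0.86 (SE; edgeR, adjusted p = 0.256).

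**Figure D3:**
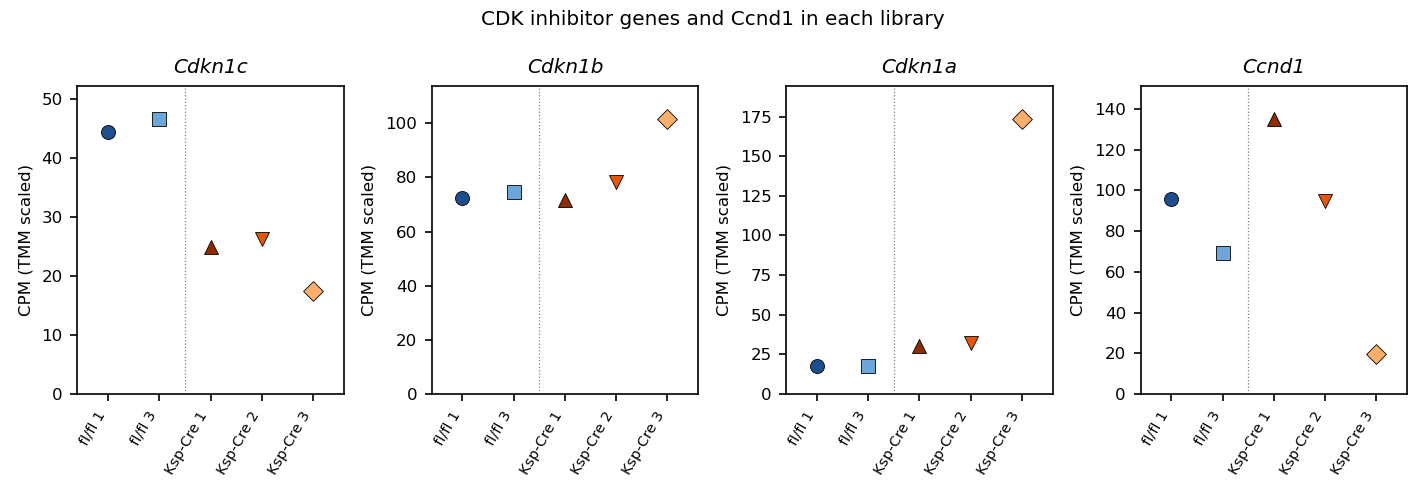
CPM (y axis, from 0) of Cdkn1c, Cdkn1b, Cdkn1a and Ccnd1 in each of the 5 libraries, with the 2 Prdm16fl/fl mice left of the dotted line and the 3 Ksp-Cre/Prdm16fl/fl mice right of it. Ksp-Cre/Prdm16fl/fl mouse 3 has the most Cdkn1a (173 CPM) and Cdkn1b (102 CPM) and the least Ccnd1 (19.7 CPM) and Cdkn1c (17.5 CPM).

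The 5 genes that carry a cell into S phase had log2 differences from 0.08 to 0.36, and none passed the test. Ccne1, an E-type cyclin, measured 2.56 and 3.37 CPM in the controls and 4.598, 3.60 and 1.47 CPM in the knockout mice (log2 difference 0.13, edgeR adjusted p = 0.914). Ccne2 measured 2.29 and 2.15 CPM against 3.24, 2.89 and 2.40 CPM, so that all 3 knockout mice lay above both controls (0.36, edgeR adjusted p = 0.536). However, Ccne2 shares 53.2% of its exon bases with Ints8 on the opposite strand, so its counts may include reads of Ints8. Cdk2, the kinase partner of both, was 38.4 and 41.2 CPM in the controls and 44.4, 44.4 and 62.0 CPM in the knockout mice (0.34, edgeR adjusted p = 0.377). Along with Cdkn1b, Cdt1 and Kif23 it is 1 of the 4 members that were highest in mouse 3, against 32.0% of all genes. Of the transcription factors, E2f1, which switches on S phase genes, again had mice 1 and 2 above both controls and mouse 3 below both (8.02 and 6.60 CPM in the controls and 12.3, 9.92 and 3.73 CPM in the knockout mice). Mybl2, which acts later with the MuvB complex, was the member of this group that differed least (5.53 and 6.82 CPM against 7.10, 5.49 and 6.996 CPM, log2 difference 0.08).

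The 8 genes of origin licensing encode the MCM helicase subunits and their loaders Cdc6 and Cdt1, which place the helicase on DNA before S phase. Their log2 differences were all above 0 in the fit of 5 libraries, from 0.11 for Mcm5 to 0.65 for Cdc6, with a median of 0.33. Cdc6 had the highest log2 difference of the 49 members and a wide spread, with 3.51 and 2.44 CPM in the controls and 7.95, 4.67 and 1.33 CPM in the knockout mice. Mice 1 and 2 lay above both controls and mouse 3 below both, and the difference of 0.65 ± 0.69 (SE) did not pass (edgeR adjusted p = 0.65). Mcm5 had the same order, with 20.4 and 17.2 CPM in the controls and 29.7, 23.2 and 7.93 CPM in the knockout mice, and a difference of 0.11 ± 0.51 (SE; edgeR, adjusted p = 0.924). Cdt1 alone in this group had all 3 knockout mice above both controls, at 9.98 and 11.3 CPM against 12.9, 13.4 and 14.4 CPM (0.35 ± 0.16, SE; edgeR, adjusted p = 0.315).

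Licensing genes are known targets of E2F factors. Their promoters are shown because 7 of these 8 genes were highest in mouse 1 of the 5 libraries. That trait was not particular to them, since 40 of the 49 members were highest there, against 16.8% of all genes. The letters searched for E2F were TTTCCCGC, TTTCGCGC, TTTGCCGC and TTTGGCGC on both strands, in windows of 300 bases (250 before to 50 after each start) from RefSeq GRCm38.p6. Windows were found for 39 of the 49 members, with 42 windows in all. The letters were held by 7 of 21 G1/S windows (33.3%), 1 of 21 G2/M windows (4.76%) and 2.26% of 32851 windows of all genes. Below are the 160 bases before the start site, 5′ to 3′ on the gene's strand, for Mcm5 (chr8:75109349-75109508, plus strand), Mcm6 (chr1:128359706-128359865, minus strand) and Cdc6 (chr11:98907991-98908150, plus strand), with E2F letters in capitals.
Mcm5: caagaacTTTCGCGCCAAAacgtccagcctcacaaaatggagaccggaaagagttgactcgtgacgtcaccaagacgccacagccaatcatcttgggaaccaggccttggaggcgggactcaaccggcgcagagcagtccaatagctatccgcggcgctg
Mcm6: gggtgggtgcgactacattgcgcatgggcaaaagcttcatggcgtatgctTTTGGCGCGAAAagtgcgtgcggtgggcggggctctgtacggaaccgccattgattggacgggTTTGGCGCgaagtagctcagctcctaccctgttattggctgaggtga
Cdc6: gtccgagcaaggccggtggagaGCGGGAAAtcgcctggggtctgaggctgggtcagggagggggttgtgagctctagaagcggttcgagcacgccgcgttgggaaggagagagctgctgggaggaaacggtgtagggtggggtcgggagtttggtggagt
In Mcm5 and in the upstream site of Mcm6 a match on one strand overlaps a match on the other. The 7 G1/S genes with the letters were Cdc6, Cdk2, Cdt1, Mcm3, Mcm5, Mcm6 and Mcm7. They did not share one pattern across the mice, since Cdk2 and Cdt1 were highest in Ksp-Cre/Prdm16fl/fl mouse 3 and Cdc6, Mcm3, Mcm5 and Mcm6 were lowest there. Beside each other the letters and the levels are a description only.

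The 4 genes of DNA and nucleotide synthesis were all lowest in Ksp-Cre/Prdm16fl/fl mouse 3. So were 17 of the 24 G1/S members and 32.0% of all genes. Pcna, the sliding clamp of DNA polymerase, measured 80.8 and 93.5 CPM in the controls and 108, 100.4 and 78.8 CPM in the knockout mice (log2 difference 0.13, edgeR adjusted p = 0.704). Rrm2, a subunit of ribonucleotide reductase, had the largest difference in this group, with 31.9 and 26.5 CPM in the controls and 52.9, 35.5 and 17.9 CPM in the knockout mice (0.28, edgeR adjusted p = 0.762). Tyms, which makes thymidylate, was the other G1/S gene besides Cdkn1c with all 3 knockout mice below both controls, at 30.7 and 33.9 CPM against 27.9, 25.8 and 15.2 CPM (-0.49 ± 0.26, SE; edgeR, adjusted p = 0.373). Tyms and Cdkn1c were thus set apart from Rrm1, Rrm2 and Pcna, for which mice 1 and 2 lay above both controls.

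In the G2/M set, 3 of the 5 genes for cyclins, Cdk1 and Foxm1 had all knockout mice above both controls. Of all 49 members 11 did so, against 20.3% of all genes. Ccnb1, the cyclin of mitotic entry, measured 6.47 and 7.53 CPM in the controls and 13.8, 11.0 and 7.93 CPM in the knockout mice. All 3 knockout mice lay above both controls, with mouse 3 only just above, and the log2 difference of 0.64 ± 0.28 (SE) was the largest of the G2/M members (edgeR, adjusted p = 0.29). Cdk1, its kinase, measured 13.9 and 13.0 CPM against 23.2, 17.3 and 16.5 CPM. The knockout mice stood at 1.72, 1.29 and 1.23 times the control mean, so that Cdk1 held its lean in mouse 3 as well, with a difference of 0.50 ± 0.20 (SE; edgeR, adjusted p = 0.254). Ccnb2 also separated, with a difference of 0.29, whereas Ccna2 (0.42) and the transcription factor Foxm1 did not. Foxm1, which drives mitotic genes, was the smallest of this group at 10.2 and 8.61 CPM in the controls and 13.8, 10.7 and 8.20 CPM in the knockout mice (0.21, edgeR adjusted p = 0.7).

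Many mitotic genes are known to carry a cell cycle genes homology region (CHR), through which the MuvB complex acts late in the cycle. The letters searched were TTTGAA and TTCGAA on both strands. They were held by 17 of 21 G2/M windows (81.0%), which belong to 16 genes, by 2 of 21 G1/S windows (9.52%) and by 19.2% of all windows. The shorter letters CCAAT, read on both strands, were held by 19 of 21 G2/M windows (90.5%), 12 of 21 G1/S windows (57.1%) and 37.4% of all windows, and overlapped a CHR match in Cdca8 and an E2F match in Mcm7. The 160 bases before the start are given for Cdk1 (chr10:69352913-69353072, minus strand) and Prc1 (chr7:80294316-80294475, plus strand), the members with the lowest p among those that were higher, and for Cdc20 (chr4:118437344-118437503, minus strand), which did not separate. Capitals mark CHR letters and, in Cdk1 at -131, E2F letters.
Cdk1: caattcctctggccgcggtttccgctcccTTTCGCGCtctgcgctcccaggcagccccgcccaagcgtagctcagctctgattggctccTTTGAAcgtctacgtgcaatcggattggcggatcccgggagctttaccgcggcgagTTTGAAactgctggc
Prc1: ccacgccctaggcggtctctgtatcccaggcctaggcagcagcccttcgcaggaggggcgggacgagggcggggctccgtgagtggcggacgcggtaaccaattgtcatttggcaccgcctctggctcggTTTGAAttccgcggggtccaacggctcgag
Cdc20: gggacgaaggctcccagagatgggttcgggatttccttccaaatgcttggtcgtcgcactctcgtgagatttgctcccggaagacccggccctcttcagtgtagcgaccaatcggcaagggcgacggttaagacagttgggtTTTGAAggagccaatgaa
The CHR letters lie at -71 and -15 in Cdk1, at -30 in Prc1 and at -18 in Cdc20, counted from the start site. They were thus common to G2/M genes that differed in how they varied between the mice.

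**Figure D4:**
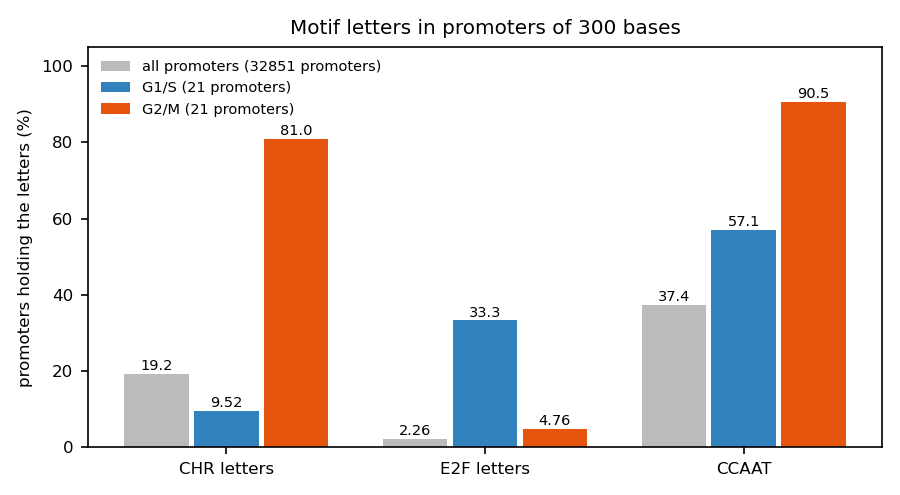
Share of promoter windows (y axis, percent) that hold CHR, E2F or CCAAT letters on either strand, among all 32851 windows (grey), the 21 windows of G1/S members (blue) and the 21 windows of G2/M members (orange). CHR letters were in 81.0% of G2/M windows and 9.52% of G1/S windows, and E2F letters in 4.76% and 33.3%.

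The mitotic kinases and chromosomal passenger genes, which build the spindle and correct its attachments, had log2 differences from 0.18 for Plk1 to 0.45 for Aurkb. Aurkb, the kinase of the passenger complex, measured 7.01 and 6.74 CPM in the controls and 11.8, 9.16 and 7.13 CPM in the knockout mice, so that the groups did not overlap but mouse 3 was at the edge of the controls (edgeR, adjusted p = 0.414). Plk1, a kinase of mitotic entry and cytokinesis, measured 7.89 and 8.47 CPM against 10.5, 9.04 and 8.26 CPM (edgeR, adjusted p = 0.658). Aurka, Birc5 (survivin) and Cdca8 (borealin) lay between them at 0.39, 0.27 and 0.25. All 5 genes were highest in mouse 1, as were 40 of the 49 members and 16.8% of all genes.

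The spindle checkpoint keeps the anaphase-promoting complex waiting until chromosomes are attached. Bub1, a checkpoint kinase, had the largest difference of this group, with 4.45 and 3.66 CPM in the controls and 7.66, 6.50 and 4.13 CPM in the knockout mice (log2 difference 0.59 ± 0.33, SE; edgeR, adjusted p = 0.388). Its partner Bub1b separated the groups, with 6.47 and 7.96 CPM against 12.5, 8.68 and 10.3 CPM (0.54). Ube2c, the ubiquitin-conjugating enzyme of the anaphase-promoting complex, had the smallest difference of the G2/M members at 0.07 ± 0.29 (SE), with 7.42 and 11.1 CPM in the controls and 12.4, 8.92 and 7.73 CPM in the knockout mice (edgeR, adjusted p = 0.918). Its 2 controls differed more from each other than the group means did. Cdc20, the activator of the complex, was at 0.21.

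Of the 9 kinetochore, spindle and cytokinesis genes, 7 were highest in mouse 1, against 16.8% of all genes. Cenpe was just highest in mouse 2 (9.75 CPM, against 9.71 CPM in mouse 1), and Kif23 was highest in mouse 3. Kif23, a motor of the central spindle needed to divide the cell body, measured 16.5 and 16.4 CPM in the controls and 22.8, 16.8 and 33.8 CPM in the knockout mice. It was the 1 G2/M member that was highest in mouse 3, at 2.05 times the control mean, and its difference was 0.57 ± 0.30 (SE; edgeR, adjusted p = 0.36). Prc1, the microtubule bundler that works with it, ranked the mice in the common order, with 13.6 and 11.9 CPM against 22.8, 18.5 and 14.7 CPM (0.55; edgeR, adjusted p = 0.261). Tpx2, a spindle assembly factor, was the smallest of the group at 0.24, with 10.7 and 11.3 CPM in the controls and 17.3, 13.3 and 8.26 CPM in the knockout mice (edgeR, adjusted p = 0.725). Cenpe, Cenpf, Kif11, Kif20a, Nusap1 and Hmmr ranged from 0.26 to 0.56. The value of Kif20a is uncertain, since 60.6% of its exon bases are shared with Cdc23 on the opposite strand.

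Mki67 and Top2a, the common markers of dividing cells, were both highest in mouse 1 and lowest in mouse 3. Of the 25 G2/M members, 23 were highest in mouse 1, against 16.8% of all genes. Fewer of them, 11 of 25, were lowest in mouse 3, against 32.0% of all genes. Mki67, which coats mitotic chromosomes, measured 35.7 and 34.2 CPM in the controls and 54.6, 42.5 and 26.7 CPM in the knockout mice, with a log2 difference of 0.24 ± 0.29 (SE; edgeR, adjusted p = 0.694). Top2a, the topoisomerase that untangles sister chromatids, measured 33.0 and 23.8 CPM against 52.8, 41.2 and 18.4 CPM, with a difference of 0.40 ± 0.43 (SE; edgeR, adjusted p = 0.652). For both, mice 1 and 2 lay above the controls and mouse 3 below them.

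How far the members differed between the genotypes depended on which knockout mouse was in the comparison. Without Ksp-Cre/Prdm16fl/fl mouse 3 the median log2 differences were 0.46 for G1/S and 0.51 for G2/M, and edgeR's test then gave an adjusted p under 0.05 to 15 members that were higher, against 7.82% of all genes in that fit. They were Ccnd2, Cdc6, Cdk6, Mcm3, Mcm4, Mcm6 and Mcm7 of G1/S and Bub1, Ccna2, Ccnb1, Cdk1, Hmmr, Mki67, Prc1 and Top2a of G2/M. Cdkn1c was lower, against 11.0% of all genes, and only Cdc6 was also past a log2 difference of 1, at 1.09, a rule that called 4.53% of all genes there. Without mouse 1 instead, the medians were 0.02 and 0.15, and 33 of 49 members were above 0. Leaving out 1 knockout mouse thus raised or lowered the medians, depending on the mouse. In the fits without knockout mouse 1 or 2 or without a control, 0 genes of the whole table had an adjusted p under 0.05, so these fits say nothing of the members' calls.

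**Figure D5:**
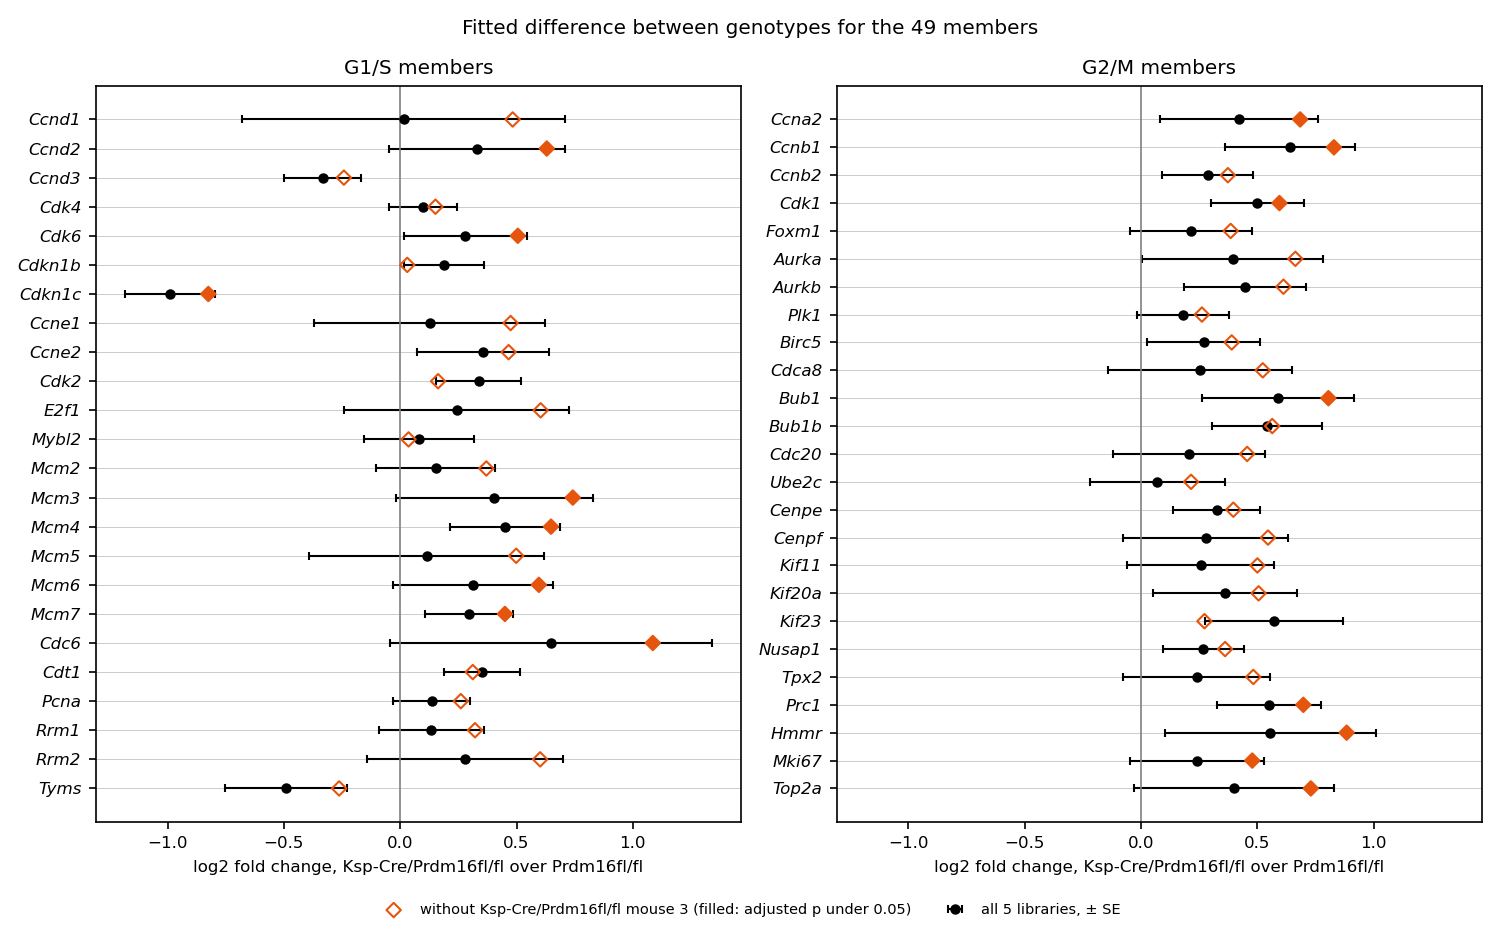
Log2 fold change (x axis) of each member, Ksp-Cre/Prdm16fl/fl over Prdm16fl/fl, as fitted on all 5 libraries (black circles, bars ± SE) and without Ksp-Cre/Prdm16fl/fl mouse 3 (orange diamonds, filled where the adjusted p of edgeR was under 0.05). With all libraries no member reached that level, and without mouse 3 the filled diamonds are 15 members that were higher and Cdkn1c, which was lower.

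Other genes of the same pathway were read from 3 further lists. Against 54.0% of all genes above 0, 25 of 32 other S phase genes had a log2 difference above 0 and 7 below, with a median of 0.24 and a range from -0.26 (Rfc2, a clamp loader subunit) to 0.70 (Cdca7). Of 35 other mitosis genes, 28 were above 0 and 7 below, with a median of 0.24 and a range from -0.58 (Tubb4b, a tubulin) to 0.83 (Nek2, a centrosomal kinase). Of 29 other regulators tested, 21 were above 0 and 8 below, with a median of 0.20 and a range from -0.35 (Lin52, a MuvB subunit) to 2.16 (Cdkn1a). In edgeR's test 0 genes of these lists were called, and at an unadjusted p under 0.05 the 3 lists in turn held 2, 6 and 6 genes that were higher, against 7.64% of all genes, and 0, 2 and 1 that were lower, against 11.2%. DESeq2, which called 3.20% of all genes, called 1 of them, Myc, a transcription factor that promotes G1 entry. Myc is named because of that call and was chosen after its values were seen, at 21.4 and 18.2 CPM in the controls and 45.2, 36.3 and 48.6 CPM in the knockout mice (1.13 ± 0.17, SE; edgeR, adjusted p = 0.0505).

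Markers of kidney cell types differed between the same libraries. The 10 proximal tubule markers were all lower, with a median log2 difference of -1.31 and 2 called, against 0.708% of all genes. At an unadjusted p under 0.05 in edgeR's test, 8 of them were lower, against 11.2% of all genes. They summed to 9981 and 10584.5 CPM in the controls and 4195, 4911 and 4085 CPM in the knockout mice. The 8 tubular injury markers were all higher (median 1.08, 0 called by edgeR, 7 at an unadjusted p under 0.05, against 7.64% of all genes). Markers of interstitial cells were summed in the same way. The 8 fibroblast and pericyte markers summed to 516 and 762 CPM in the controls and 1261, 1217 and 860.1 CPM in the knockout mice, and the 8 macrophage markers to 537 and 673 CPM against 859.8, 797 and 546 CPM. Both sums were higher in knockout mice 1 and 2 than in the other 3 libraries. The 5 T cell markers summed to 42.1 and 41.7 CPM against 37.9, 49.4 and 23.3 CPM. Each of the 5 was lowest in mouse 3, as were 32.0% of all genes. No marker of these 3 lists was at 0 in any library, and none was called. At an unadjusted p under 0.05 (edgeR), 5 fibroblast and pericyte markers were higher, against 7.64% of all genes. No macrophage or T cell marker reached that level in either direction. In mouse 3, 2 of the 8 macrophage markers were lowest of the 5 libraries, and their sum there lay between the controls. The 5 erythroid markers, which mark red blood cells and their precursors, were all higher (median 3.93, 0 called by edgeR). At an unadjusted p under 0.05 (edgeR) stood 5 of them, against 7.64% of all genes. They summed to 6.67 and 10.8 CPM in the controls and 151, 150.3 and 40.5 CPM in the knockout mice, and thus were also highest in mice 1 and 2. The 6 endothelium markers had another order, with a sum of 246 and 240 CPM in the controls and 230, 200 and 279 CPM in the knockout mice. The 4 thick ascending limb markers summed to 2817 and 3763 CPM against 2625, 2330 and 1236 CPM. The 3 distal convoluted tubule markers summed to 1509 and 956 CPM against 827, 581 and 201 CPM. Both of these tubule sums were lowest in mouse 3. The part of these cell types in the levels of the members was not tested.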

How the data were processed

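Kidney RNA-seq libraries of 2 Prdm16fl/fl and 3 Ksp-Cre/Prdm16fl/fl mice, 1 library per mouse, were grouped by the genotype in the labels. The authors deposited raw counts per gene, and beside them TPM and FPKM, which were recomputed from the counts and differed by rounding only. Per the labels, featureCounts 2.0.1, CASAVA and DESeq2 1.16.1 were used upstream. The labels name hg38, a human build. The build of the mouse files is not named, and 0 of 49 members had the start and end of RefSeq GRCm38.p6, so promoter windows were matched by symbol. The aligner and the strand setting are not given in the sources used here. Broken lines of 5 genes were rejoined, and 9845 genes had 0 counts in all libraries.

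Genes were filtered with filterByExpr, scaled with TMM and tested with the quasi-likelihood test of edgeR 4.0.16 (R 4.3.3) without covariates, with Benjamini-Hochberg adjustment over 16394 genes. Calls required an adjusted p under 0.05 together with an absolute log2 difference of 1 or above. CPM are per 1000000 TMM-scaled counts, and 0.5 was added for log2 ratios per library. Library sizes of 14939040 to 16425161 counts set the precision, and p-values measure the spread between mice. No 2 libraries were duplicates: the chi-square per degree of freedom of the closest pair was 9.89. Alternatives were DESeq2 1.42.0, 2 other filters, 2 other scalings, each mouse left out, the mouse number as a block, and limma 3.58.1 on log2(FPKM + 1) or log2(FPKM + 0.1). The edgeR and DESeq2 tests were run on simulated counts in which 200 genes were changed by 1.5 or 3 log2 units. Of these, edgeR called 82% and 100% and DESeq2 81% and 96%. Of the unchanged genes they called 0.037% and 0.024%. No smaller change and no library set apart from its group was simulated, so differences of the members' size were not covered.

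The 49 members and all gene lists were chosen with earlier results of these data known. Members named with values are the highest and the lowest log2 difference of each of 10 roles and 9 landmark genes, which gave 24 genes. Others were named after their values were seen. Not all markers are reported here.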

Additional observations from a re-analysis of the deposited data

How the results depend on the processing

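No member was called by DESeq2, under the other filters and scalings or on log2(FPKM). Without Ksp-Cre/Prdm16fl/fl mouse 3, 1 G1/S member was called (range over left-out mice 0 to 1). The fits without another mouse and the fit with the block called 0 genes of the whole table and so say nothing of stability. The median log2 differences stayed above 0, from 0.02 to 0.46 (G1/S) and from 0.15 to 0.51 (G2/M). Scaling by library size moved the median of all genes from 0.04 to 0.15, and the members' medians to 0.33 and 0.44. The log2(FPKM) fits tested 45 of the 49 members. The mouse numbers were not treated as pairs. Deviations of same-numbered mice from their group means correlated at 0.001 and -0.022. With 2 controls, 1 deviation is the negative of the other, so this check cannot exclude pairing. With the number as a block, 0 members were called and the medians were 0.09 and 0.29. Ccnd1 (-0.63), Mcm5 (-0.26), Ccne1 (-0.13) and E2f1 (-0.075) turned negative there. Ccnd1 was also negative on log2(FPKM + 1) (-0.21) and log2(FPKM + 0.1) (-0.25). With 1 mouse left out, the sign turned for Ccnd1 (-0.52 to 0.48), Mcm5 (-0.27 to 0.50), Ccne1 (-0.22 to 0.47), Mybl2 (-0.065 to 0.24), Rrm2 (-0.13 to 0.60), Ube2c (-0.19 to 0.38), Tpx2 (-0.026 to 0.48) and Mki67 (-0.012 to 0.48). It also turned for Cdca8 (-0.16 to 0.52), E2f1 (-0.094 to 0.60), Cdc20 (-0.064 to 0.46) and Cdk4 (-0.049 to 0.26). The remaining members that turned were Rrm1 (-0.035 to 0.32), Mcm2 (-0.020 to 0.37) and Kif11 (-0.013 to 0.50).

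Of the other cell cycle genes 1 (Myc) was called by DESeq2, without a filter and with at least 10 counts in every library, and 0 to 3 with 1 mouse left out, the 3 being Myc, Cdkn2b and Ttk without Ksp-Cre/Prdm16fl/fl mouse 3. Called markers numbered 2, but 17 by DESeq2, 11 without a filter, 1 with library size scaling, 0 with the block, 1 on log2(FPKM + 0.1) and 0 to 23 with 1 mouse left out. Called genes of the whole table numbered 116, but 502 by DESeq2, 287 without a filter, 46 with library size scaling, 0 with the block, 55 on log2(FPKM + 1), 43 on log2(FPKM + 0.1) and 0 to 733 with 1 mouse left out. Where 1 Prdm16fl/fl mouse was left, it was assumed to vary like the other group. The cause of these shifts was not tested.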
